A study of Mus musculus with 15 samples.

Results

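The ADAMTS proteases are secreted metalloproteases of the extracellular matrix. The genes described here are Adamts1, Adamts2, Adamts4, Adamts5, Adamts8, Adamts9, Adamts10, Adamts12, Adamts15 and the ADAMTS-like gene Adamtsl2. They were taken by symbol, as every probe whose accession maps to 1 of these names. All 10 genes were found, on 17 probes of the 41174 on the arrays, and all 10 passed the filter on dim probes that 14918 named genes passed. The expression of these genes was not used to choose them for a test, but results of these data were known when they were chosen.

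ADAMTS enzymes carry a disintegrin-like module and thrombospondin repeats that hold them in the matrix next to their substrates. Adamts1, Adamts4, Adamts5, Adamts8, Adamts9 and Adamts15 form the group that cuts large hyaluronan-binding proteoglycans such as versican and aggrecan, while Adamts2 removes the amino-terminal propeptide of fibrillar procollagens. Adamts10 and Adamtsl2 bind fibrillin microfibrils, and Adamtsl2 has no protease domain. In the heart these enzymes are known for clearing versican during valve and wall development and for matrix turnover after injury.

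The arrays measured RNA of the heart apex of male C57BL6 mice aged 10 weeks, 3 days after transverse aortic constriction (TAC), which narrows the aorta and raises the pressure against which the left ventricle ejects, or after a sham operation. The genotype labels are MHC-cre (here Cre) and MHC-cre-klf4 (here KO), so all groups carry the MHC-cre transgene, which the myosin heavy chain promoter drives in cardiomyocytes. The study had no group without cre, and no unoperated group was analysed here. Of the arrays, 4 were Cre after sham and 3 Cre after TAC, while KO had 4 after each operation. The labels speak of 4 animals per group, and the 15 titles end in different numbers.

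Several features of these arrays bear on the results. Of the 15 columns of the deposited value table, 14 matched a scanner array of the same operation but of the other genotype, so which genotype is which is not settled, and genotypes are given as filed with the scanner data. The difference between TAC and sham averaged over the genotypes keeps its value if the 2 labels are exchanged on all 15 scanner arrays. The targeted gene did not settle it: the mean log2 level of Klf4 was 3.98 ± 0.25 in Cre sham (SD, n = 4), 4.14 ± 0.13 in Cre TAC (n = 3), 3.94 ± 0.51 in KO sham (n = 4) and 4.15 ± 0.44 in KO TAC (n = 4), and where its probe lies relative to the deleted part is not stated in these sources. KO TAC replicate 4 stood apart, with 95.9% of probes well above background against 65.6% to 75.4% on the other arrays. The main counts and some values are therefore also given without it, and values given once may change without it. The trailing numbers of the titles, whose meaning the labels do not give, lay between 729 and 768 for the 7 TAC arrays, between 735 and 771 for 4 sham arrays and between 881 and 937 for the other 4 sham arrays, with 2 of each genotype in each sham set. The sham arrays of the lower numbers lay on slides 2 and 3, and those of the higher numbers on slides 1 and 4. Among sham arrays, title number and slide therefore cannot be told apart. For 7 of the 15 samples the description field named the other operation, and operations here are those of title and source name. Levels below are log2 of the processed signal minus the 75th percentile of the same array, so that 0 is the 75th percentile, and levels of different probes are not comparable.

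TAC raised most of these genes. Averaged over the genotypes, 7 of the 10 were called at an adjusted p under 0.05 (limma, Benjamini-Hochberg over 25786 features), all 7 higher: Adamts1, Adamts2, Adamts4, Adamts8, Adamts9, Adamts15 and Adamtsl2. Of all features, 27% were called in this comparison and 13.3% were called higher. The median log2 difference of the 10 genes was 1.14, and that of all features was 0.04. Adamts8 and Adamts1 rose most, 6.13-fold and 5.96-fold, and Adamts5, Adamts10 and Adamts12 were not called. Without KO TAC replicate 4, 9 of the 10 were called, with Adamts12 higher and Adamts10 lower. Against the 4 sham arrays of the lower title numbers alone, a choice made after seeing the data, 4 of the 10 were called: Adamts1, Adamts2, Adamts4 and Adamts8. With KO TAC replicate 4 left out as well, 6 were called, those 4 with Adamts9 and Adamts12. Of all 25786 features these settings called 9818, 2810 and 7138, in the order given, against 6972 in the main fit.

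Within the hearts filed as Cre, 4 of the 10 genes were called, all higher (Adamts1, Adamts2, Adamts8 and Adamtsl2), where 5.94% of all features were called and 4.3% were called higher. The median difference of the 10 genes was 0.95 there and that of all features -0.05. Within those filed as KO, 4 of the 10 were called, all higher (Adamts1, Adamts2, Adamts4 and Adamts8), against 23.2% of all features and 10.6% called higher. The median difference was 0.84, beside 0.11 over all features. Leaving out KO TAC replicate 4 brought the count filed as KO to 7, adding Adamts9, Adamts10 and Adamts12. The count filed as Cre became 6, adding Adamts9 (0.85) and Adamts15 (0.97) at the same differences as on all arrays. Calls over all features rose too, from 5979 to 8109 filed as KO and from 1532 to 3486 filed as Cre. With slide as a block, 7 were called averaged, 5 filed as Cre and 6 filed as KO, and of all features 8402, 2016 and 7420. Of all calls filed as Cre 72.4% were higher, and 58.1% were with normexp and quantile normalization; of those filed as KO 45.7% were higher, and 31.1% were with median scaling.

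**Figure D1:**
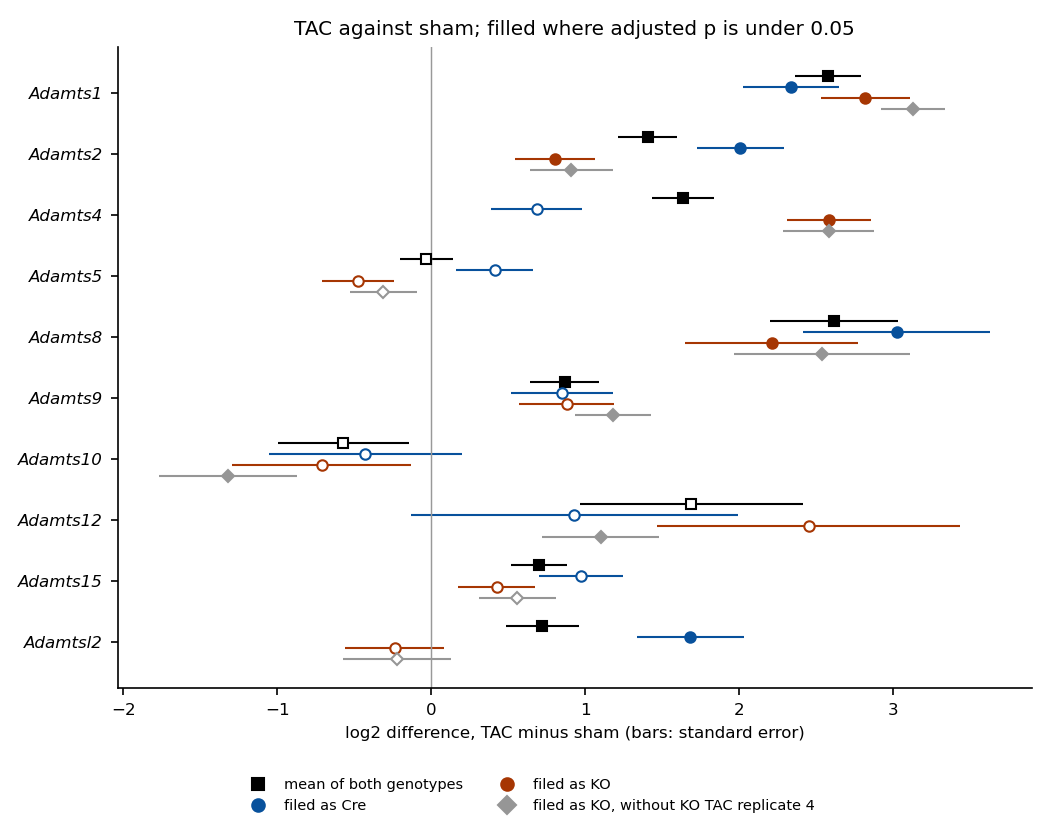
Log2 difference between TAC and sham for the 10 genes (horizontal axis, bars: standard error), averaged over the genotypes (squares), in hearts filed as Cre and as KO (circles), and filed as KO without KO TAC replicate 4 (diamonds). Filled symbols have an adjusted p under 0.05; Adamts1, Adamts2 and Adamts8 are filled in every comparison shown, and Adamts5 in none.

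Adamts1, a protease of versican and aggrecan, rose after TAC without overlap between the operations. Its log2 level was 0.94, 1.03, 0.71 and 1.24 on the Cre sham arrays and 0.91, 1.02, 1.05 and 1.17 on the KO sham arrays. After TAC it was 3.18, 3.38 and 3.39 in hearts filed as Cre and 4.41, 4.51, 3.57 and 2.93 in those filed as KO. Every TAC array lay above every sham array, which held with either sign for 7.44% of all features, and the sham arrays of both genotypes covered the same range, with means of 1.01 for the lower and 1.01 for the higher title numbers. The averaged log2 difference was 2.58 ± 0.21 (SE, adjusted p = 2.2e-05, limma), 2.33 ± 0.31 filed as Cre (adjusted p = 0.0016) and 2.82 ± 0.29 filed as KO (adjusted p = 1e-04). The other probe of Adamts1 gave an averaged difference of 2.62 ± 0.19 (adjusted p = 1.4e-05), and within the 4 slides the difference lay between 2.22 and 3.38.

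Adamts8, a related protease that also cuts aggrecan, rose by about as much, from a more variable sham level. Cre sham arrays read -3.29, -3.73, -4.56 and -2.76, and Cre TAC arrays read -0.48, -0.40 and -0.80. KO sham arrays read -2.48, -0.58, -1.75 and -3.50, and KO TAC arrays 0.81, 0.52, 0.06 and -0.87. The groups filed as Cre did not overlap, as for 26.9% of all features (23.7% for those filed as KO), while KO sham replicate 2 lay above KO TAC replicate 4. The log2 difference was 2.62 ± 0.42 averaged (adjusted p = 0.00052, limma), 3.02 ± 0.61 filed as Cre (adjusted p = 0.012) and 2.21 ± 0.56 filed as KO (adjusted p = 0.013). The other probe gave 2.78 ± 0.61 filed as Cre (adjusted p = 0.018) and 2.43 ± 0.56 filed as KO (adjusted p = 0.0073).

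The 2 KO sham arrays with the higher Adamts8 signal, replicates 2 and 3, were also the 2 of the lower title numbers. They were the highest KO sham arrays for Adamts2, Adamts15 and Adamtsl2 as well. The call of Adamts8 filed as Cre was lost without Cre TAC replicate 1 (2.98 ± 0.72, adjusted p = 0.053, limma) or 2 (2.94 ± 0.72, adjusted p = 0.071), at nearly the same difference. Against KO sham replicates 2 and 3 alone the Adamts8 difference filed as KO was 1.30 ± 0.48 and no longer called (adjusted p = 0.15), while filed as Cre, against the 2 sham arrays of the lower numbers, it was 2.95 ± 0.51 (adjusted p = 0.041). What part the title number or the slide has in these levels was not tested, and among sham arrays these cannot be told apart.

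**Figure D2:**
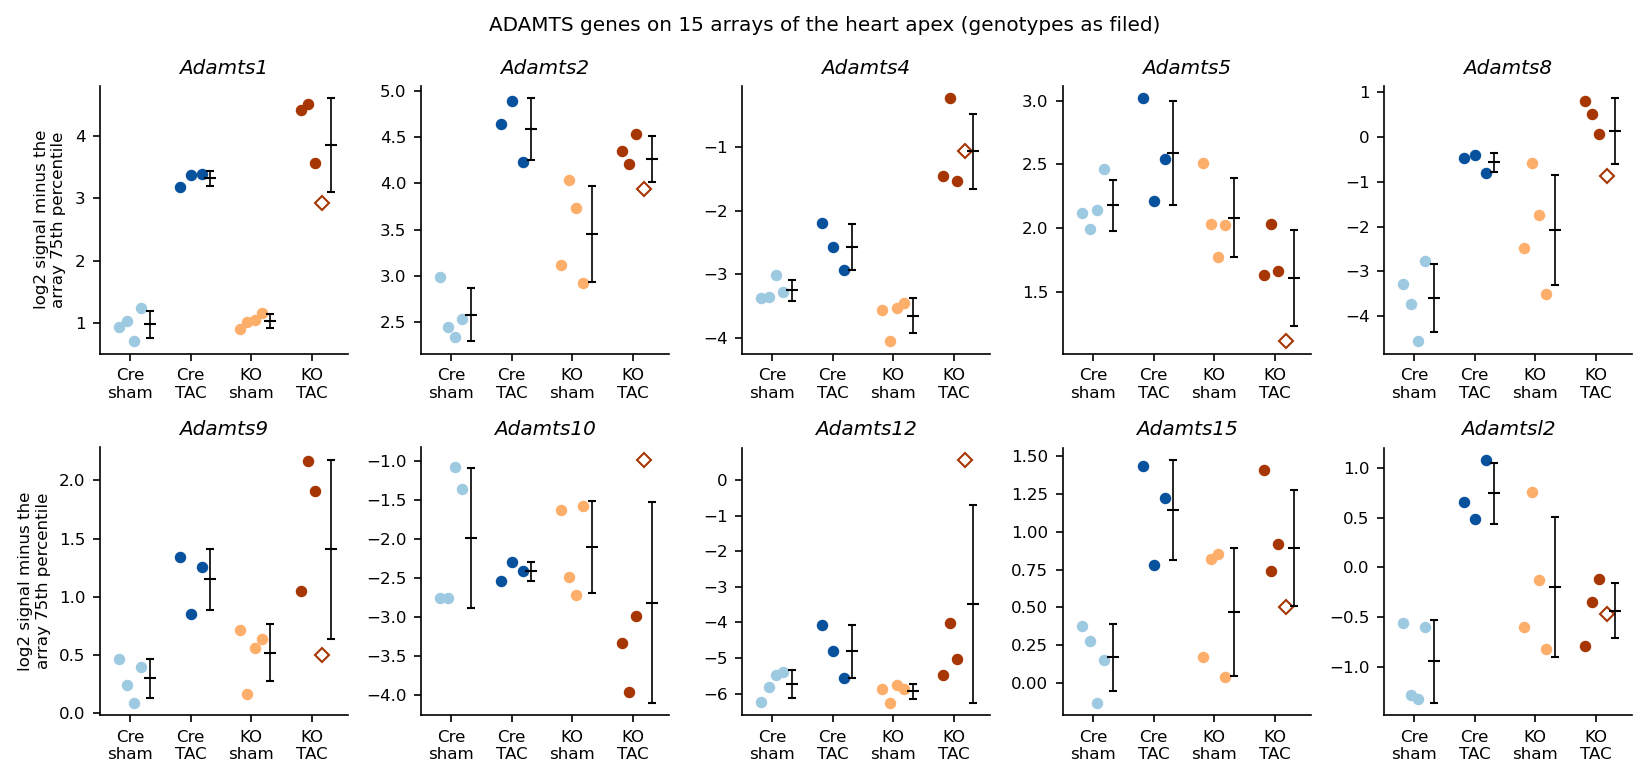
Log2 level (vertical axis, log2 signal minus the 75th percentile of the array; each panel has its own scale) of the 10 genes on their brightest probe on the 15 arrays, by group as filed. Points are arrays, the open diamond is KO TAC replicate 4, and the bar is the group's mean ± SD; for Adamts1 and Adamts4 every TAC array lies above every sham array, and for Adamts12 the open diamond at 0.58 lies far above the other arrays.

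Adamts4, an aggrecan- and versican-cutting enzyme known to be induced in inflamed tissue, rose in hearts filed as KO and was the 1 gene called between genotypes after TAC. Its log2 level was -3.38, -3.36, -3.01 and -3.28 in Cre sham and -3.57, -4.06, -3.54 and -3.45 in KO sham. It was -2.20, -2.58 and -2.93 in Cre TAC and -1.45, -0.23, -1.54 and -1.06 in KO TAC. In rising order the groups ran from KO sham over Cre sham and Cre TAC to KO TAC, with no overlap between neighbours. Such a lack of overlap held for 6.84% of all features between genotypes after sham and for 12.6% after TAC, and KO sham and Cre sham were not called different (adjusted p = 1, limma). The difference between TAC and sham was 1.63 ± 0.20 averaged (adjusted p = 9.6e-05), 2.58 ± 0.27 filed as KO (adjusted p = 0.00011) and 0.69 ± 0.29 filed as Cre, which was not called (adjusted p = 0.23). Adamts4 has a single probe on the array that could be named, so no other probe was there to set beside it.

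Adamts9 and Adamts15 rose less. Adamts9, a versican-cutting protease of developing heart and vessels, read between 0.09 and 0.47 in Cre sham and between 0.17 and 0.72 in KO sham. It read 1.34, 0.85 and 1.26 in Cre TAC and 1.05, 2.17, 1.91 and 0.50 in KO TAC, so that KO TAC replicate 4 alone among TAC arrays fell within the sham range. Its averaged difference was 0.87 ± 0.23 (adjusted p = 0.012, limma). Filed as KO it was 0.88 ± 0.31 and not called (adjusted p = 0.055), and without KO TAC replicate 4 it was 1.18 ± 0.25 and called (adjusted p = 0.0032). Slide as a block also called it (0.88 ± 0.24, adjusted p = 0.022, limma). The other probe of Adamts9 gave a larger difference filed as KO, 2.22 ± 0.31 (adjusted p = 0.00036), with KO TAC replicate 4 its highest array at -2.66.

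Adamts15, an enzyme with versican-cutting activity, read between -0.13 and 0.38 in Cre sham and 1.43, 0.78 and 1.22 in Cre TAC. KO sham arrays read 0.17, 0.82, 0.85 and 0.04, and KO TAC arrays 1.41, 0.74, 0.92 and 0.50. The groups filed as Cre did not overlap and those filed as KO did. The averaged difference was 0.70 ± 0.18 (adjusted p = 0.013, limma), while neither genotype alone was called, at 0.97 ± 0.27 filed as Cre (adjusted p = 0.053) and 0.42 ± 0.25 filed as KO (adjusted p = 0.26). With slide as a block the difference filed as Cre was 1.08 ± 0.18 and called (adjusted p = 0.0087). Neither the rise of Adamts9 (0.92 ± 0.32, adjusted p = 0.11, limma) nor that of Adamts15 (0.44 ± 0.21, adjusted p = 0.23) was called against the sham arrays of the lower title numbers. In the RefSeq gene order of the mouse, Adamts8 and Adamts15 are neighbours on chromosome 9, and Adamts1 and Adamts5 are neighbours on chromosome 16.

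Adamts5, the main aggrecan-cutting enzyme of cartilage, did not rise with its neighbour Adamts1. Its log2 level was 2.12, 1.99, 2.14 and 2.46 in Cre sham and 3.02, 2.21 and 2.54 in Cre TAC. In KO sham it was 2.51, 2.03, 1.77 and 2.02, and in KO TAC 1.63, 2.03, 1.66 and 1.11. All 3 Cre TAC arrays lay above the mean of their sham group, all 4 KO TAC arrays lay below theirs, and the TAC groups of the 2 genotypes did not overlap. The difference between TAC and sham was 0.41 ± 0.25 filed as Cre and -0.47 ± 0.24 filed as KO, neither of them called (adjusted p = 0.46 and 0.17, limma), and the average of the 2 was -0.03 ± 0.17. With slide as a block the fall filed as KO was called (-0.47 ± 0.15, adjusted p = 0.039). Without KO TAC replicate 4 the fall was -0.31 ± 0.22 and not called (adjusted p = 0.32, limma). With both changes it was -0.36 ± 0.13 and called (adjusted p = 0.047).

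The other probe of Adamts5 showed the fall in hearts filed as KO more tightly. It read -2.09, -2.13, -2.37 and -2.37 in KO sham and -2.90, -3.10, -3.03 and -3.38 in KO TAC, a log2 difference of -0.86 ± 0.16 (adjusted p = 0.0019, limma, over all probes that passed the filter). In hearts filed as Cre it read -2.11, -2.07, -1.84 and -2.15 after sham and -1.43, -1.94 and -1.53 after TAC, a difference of 0.41 ± 0.17 that was not called (adjusted p = 0.21). The test of the difference between these 2 responses gave -1.27 ± 0.23 and was not called after adjustment (adjusted p = 0.14).

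Adamts2, the procollagen amino-proteinase, rose in both genotypes. Cre sham arrays read 2.99, 2.45, 2.34 and 2.53 and Cre TAC arrays 4.64, 4.89 and 4.23, with no overlap. KO sham arrays read 3.12, 4.04, 3.73 and 2.92 and KO TAC arrays 4.35, 4.21, 4.53 and 3.94, so that KO TAC replicate 4 lay below KO sham replicate 2. The log2 difference was 1.41 ± 0.19 averaged (adjusted p = 0.00018, limma), 2.01 ± 0.28 filed as Cre (adjusted p = 0.0019) and 0.80 ± 0.26 filed as KO (adjusted p = 0.04). The last of these was 0.37 ± 0.27 against the 2 sham arrays of the lower title numbers and was no longer called (adjusted p = 0.5), and it was called in 6 of the 15 fits that leave out 1 array. On the other probe of Adamts2 the groups filed as KO did not overlap, and the difference was 1.57 ± 0.43 (adjusted p = 0.017). There KO TAC replicate 4 was the highest array at -0.69, and the other KO TAC arrays read -2.76, -2.48 and -2.52. That array thus enlarges the difference on this probe, whose value without it is not given here.

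Adamts1 and Adamts2, which rose together, start from promoters of different make. Their 250 bases before the start, from RefSeq (GRCm38.p6; a promoter was matched for 5 of the 10 genes), are shown with matches to the searched motifs in capitals. Adamts1 lies at chr16:85803114-85803363 on the minus strand and Adamts2 at chr11:50601835-50602084 on the plus strand.
Adamts1: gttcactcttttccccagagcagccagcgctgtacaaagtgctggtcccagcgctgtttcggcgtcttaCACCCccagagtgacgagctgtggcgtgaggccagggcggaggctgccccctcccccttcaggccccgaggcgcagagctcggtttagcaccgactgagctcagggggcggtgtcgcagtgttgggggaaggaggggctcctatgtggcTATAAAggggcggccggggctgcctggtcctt
Adamts2: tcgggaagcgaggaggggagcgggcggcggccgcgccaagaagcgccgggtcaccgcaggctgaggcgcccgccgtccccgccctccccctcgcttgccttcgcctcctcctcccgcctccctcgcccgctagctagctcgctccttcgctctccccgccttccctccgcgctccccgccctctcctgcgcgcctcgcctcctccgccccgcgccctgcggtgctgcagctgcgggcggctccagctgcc
Searched on both strands were TATAAA (the TATA box), CACCC (a core bound by Krüppel-like factors), TGANTCA (AP-1), TGACGTCA (the cyclic AMP response element) and CATTCC (TEAD). Adamts1 holds TATAAA starting 32 bases before the start and CACCC 181 bases before it, and Adamts2 holds none of the 5. Of 32851 mouse promoter windows of the same length, 12.4% hold TATAAA, 52.0% hold CACCC, 6.75% hold TGANTCA, 1.55% hold TGACGTCA and 12.6% hold CATTCC. In the full 250 bases, which for Adamtsl2 and Adamts9 run into the annotated bounds of the gene and are not printed, Adamtsl2 holds TATAAA 30 bases before the start and Adamts9 holds CACCC. Adamts12, which was not called, holds CACCC on the other strand at 3 places. These are matches of letters and not measured binding sites.

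Adamtsl2, a fibrillin-binding glycoprotein without protease activity, rose in the hearts filed as Cre and was not called in those filed as KO. It read -0.56, -1.28, -1.32 and -0.60 in Cre sham and 0.66, 0.49 and 1.08 in Cre TAC, with no overlap. In KO sham it read -0.60, 0.76, -0.13 and -0.82 and in KO TAC -0.79, -0.35, -0.12 and -0.47, and the KO TAC arrays lay inside the KO sham range. The log2 difference was 1.68 ± 0.35 filed as Cre (adjusted p = 0.013, limma) and -0.24 ± 0.32 filed as KO (adjusted p = 0.64), and the difference between these responses, -1.92 ± 0.47, was not called (adjusted p = 0.25). The averaged difference was 0.72 ± 0.24 (adjusted p = 0.037), and 0.45 ± 0.25 (adjusted p = 0.3) against the sham arrays of the lower title numbers. The averaged call stood in only 5 of the 15 fits that leave out 1 array, and the call filed as Cre was lost without Cre TAC replicate 1 (1.72 ± 0.41, adjusted p = 0.051).

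Adamts12, a protease of cartilage oligomeric matrix protein, was dim on all arrays but 1. It read between -6.26 and -5.39 on the sham arrays, with 1 KO sham array not well above background. Cre TAC arrays read -4.08, -4.79 and -5.56, and KO TAC arrays read -5.47, -4.02, -5.03 and 0.58. The highest value is that of KO TAC replicate 4. With it the averaged difference was 1.69 ± 0.72 and not called (adjusted p = 0.11, limma). Without it the difference was 1.01 ± 0.27 and called (adjusted p = 0.0099), and that filed as KO was 1.10 ± 0.38 (adjusted p = 0.043). It was also called without KO TAC replicate 1, at 2.02 ± 0.69 (adjusted p = 0.049).

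Adamts10, a fibrillin-binding member, was the gene with the lowest averaged difference, -0.57 ± 0.43, which was not called (adjusted p = 0.38, limma). Cre sham arrays read -2.76, -2.76, -1.07 and -1.35 and Cre TAC arrays -2.54, -2.29 and -2.41. KO sham arrays read -1.62, -2.48, -2.72 and -1.57 and KO TAC arrays -3.33, -3.96, -2.98 and -0.98. Without KO TAC replicate 4, the averaged difference was -0.87 ± 0.32 (adjusted p = 0.045). The sham arrays fell into the 2 sets of the title numbers: those of the higher numbers read between -1.62 and -1.07 and those of the lower numbers between -2.76 and -2.48. Against the lower set the averaged difference was 0.07 ± 0.49 (adjusted p = 0.95), and without KO TAC replicate 4 as well it was -0.24 ± 0.19 (adjusted p = 0.39). The other probe had the same order of the sham sets, with -3.25 to -2.11 for the higher and -3.55 to -3.34 for the lower numbers.

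**Figure D3:**
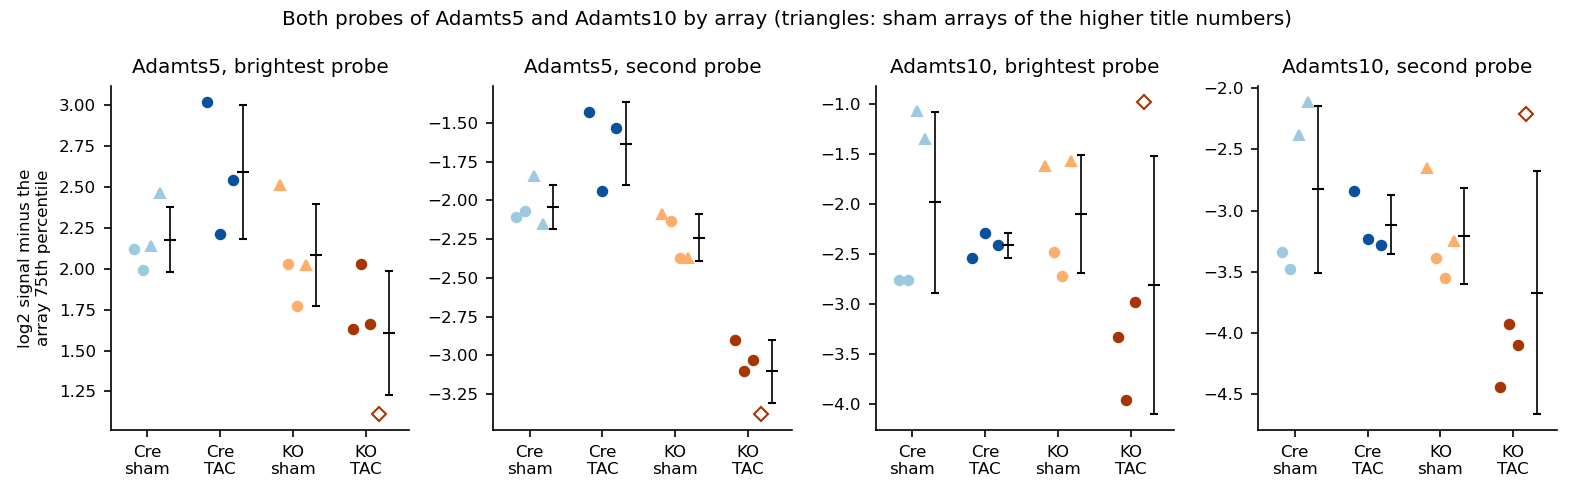
Log2 level (vertical axis) of Adamts5 and Adamts10 on each of their probes on the 15 arrays, by group as filed. Points are arrays, triangles are the sham arrays of the higher title numbers, the open diamond is KO TAC replicate 4, and bars are mean ± SD; on the other probe of Adamts5 all KO TAC arrays, at -2.90 or below, lie under the KO sham arrays, and both probes of Adamts10 place the triangles above the sham circles.

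Between genotypes after TAC, 1 of the 10 genes was called (limma), where 3.04% of all features were called and 1.14% were called higher. Adamts4 was 2.83-fold higher in hearts filed as KO, a log2 difference of 1.50 ± 0.29 (adjusted p = 0.02), with 1.39, 1.52 and 1.97 within the 3 slides that held both TAC groups. Leaving out Cre TAC replicate 3 left 0 of the 10 called, with Adamts4 at 1.32 ± 0.33 (adjusted p = 0.13) and 68 of all features called. On all arrays 3 of the 10 were under 0.05 unadjusted. Leaving out the sham arrays of the higher numbers gave Adamts4 1.50 ± 0.34 (adjusted p = 0.093), where 136 of all features were called. Adamts5 was lower by -0.98 ± 0.25 on its brightest probe, just short of a call (adjusted p = 0.056), and by -1.47 ± 0.17 on the other probe (adjusted p = 0.0021). Adamtsl2 was lower by -1.17 ± 0.35 and not called (adjusted p = 0.089), and its TAC groups did not overlap, as for 12.6% of all features. With slide as a block, Adamts5 was called (-0.96 ± 0.17, adjusted p = 0.016, limma) beside Adamts4. Under quantile normalization Adamts5 was called (-0.89 ± 0.20, adjusted p = 0.036) and Adamts4 was not (1.28 ± 0.33, adjusted p = 0.055). Few cell type markers were called in this comparison, beside the 3.04% of all features. The fibroblast markers Tcf21 (-0.88 ± 0.20, adjusted p = 0.037) and Dpt (-0.95 ± 0.23, adjusted p = 0.04) were lower in hearts filed as KO, 2 of 12 in their list. So was the endothelial marker Kdr (-1.32 ± 0.30, adjusted p = 0.036), 1 of 12, with 0 called in the other marker lists. Among the fibroblast markers Meox1 (0.32), Pdgfra (0.16), Mfap5 (0.10) and Mgp (0.03) went the other way, uncalled. The fibroblast list had a median difference of -0.56 and means per array of 3.35 to 3.56 in Cre TAC and 2.65 to 3.32 in KO TAC, and its part in the ADAMTS differences was not tested. Without KO TAC replicate 4 the count of ADAMTS genes was 3, with Adamts1 at 0.85 ± 0.22 (adjusted p = 0.036) and Adamts5 at -0.82 ± 0.23 (adjusted p = 0.05) beside Adamts4. That fit called 2277 of all 25786 features, against 785 on all arrays.

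After sham, 0 of the 10 genes were called between genotypes by limma, 3 had an unadjusted p under 0.05, and 0.0155% of all features were called. The 3 were Adamts2 at 0.88 ± 0.26, Adamts8 at 1.50 ± 0.56 and Adamtsl2 at 0.74 ± 0.32, each higher in hearts filed as KO. With array weights in limma, 2 of the 10 were called, Adamts2 (adjusted p = 0.037) and Adamts8 (adjusted p = 0.049). That fit called 547 of all 25786 features after sham, where the fit without weights called 4. For the difference of the TAC responses, 0 of the 10 were called, 4 had an unadjusted p under 0.05, and 0.0116% of all features were called. The 4 were Adamts4 at 1.90 ± 0.40, Adamts2 at -1.20 ± 0.38, Adamts5 at -0.89 ± 0.34 and Adamtsl2 at -1.92 ± 0.47. With array weights in limma Adamts4 was called (adjusted p = 0.041), where 340 of all 25786 features were called, against 3 without weights. The TAC responses of Adamts4, Adamts5 and Adamtsl2 were therefore not shown to differ between genotypes by the planned test. All these signs turn over if the genotypes of the value table hold.

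Of 8 measured further ADAMTS proteases, 1 rose and 1 fell in the averaged comparison, a share near the 27% of all features called, with a median log2 difference of 0.35. Adamts16, a protease of fibronectin, was not well above background on any sham array, and was at least 4.78-fold higher in KO TAC than in KO sham, with measured means of -4.24 and -8.09 (adjusted p = 0.011, limma). Without KO TAC replicate 4 the KO TAC mean was -5.35 and the bound 2.22-fold (adjusted p = 0.0065). In such bounds the dim group is held at the lowest signal well above background on each of its arrays. Adamts16 was well above background on 1 Cre TAC and 4 KO TAC arrays. It therefore passed the filter only through the group where it is high. Its p-values and its count as the 1 that rose are no independent support. Adamts7, a protease of cartilage oligomeric matrix protein, fell by 1.34 ± 0.34 (adjusted p = 0.0097). Of 4 measured ADAMTS-like proteins 0 rose and 2 fell, with a median of -0.17. Papln (papilin) was not well above background on any KO TAC array and was at least 3.28-fold lower there than in KO sham (adjusted p = 0.00042). Against Cre TAC the same reckoning gave 2.01-fold lower (adjusted p = 0.019). Papln was well above background on only 2 of the Cre TAC arrays (SD 1.32 in that group), so the latter is no firm bound. Adamtsl4, another fibrillin-binding member, fell by 0.62 ± 0.15 (adjusted p = 0.0084).

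Several substrates of these enzymes and some hyaluronan partners rose. Of 11 measured proteoglycans and hyaluronan partners, 5 rose and 1 fell in the averaged comparison, with a median log2 difference of 1.36. That list joins proteoglycans with hyaluronan synthases and binding partners. Versican (Vcan), the substrate shared by many of these proteases, rose by 2.63 ± 0.26 (adjusted p = 3.4e-05, limma). The hyaluronan synthase Has1 rose by 3.62 ± 0.30 (adjusted p = 2.2e-05) and the hyaluronan receptor Cd44 by 2.18 ± 0.20 (adjusted p = 2.6e-05). The hyaluronan synthase Has3 fell by 2.57 ± 0.66 (adjusted p = 0.011). It was well above background on only 1 of 3 Cre TAC and 2 of 4 KO TAC arrays, so the size of its fall is uncertain. Without KO TAC replicate 4 its difference was -3.13 (adjusted p = 5.6e-05, limma). Of 14 other matrix substrates 9 rose and 1 fell, with a median of 1.73, among them thrombospondin 1 (Thbs1) at 2.74 ± 0.35 (adjusted p = 0.00013), fibrillin 2 (Fbn2) at 2.64 ± 0.49 (adjusted p = 0.0014), the type I collagen chain Col1a1 at 2.29 ± 0.30 (adjusted p = 0.00015) and fibronectin (Fn1) at 2.11 ± 0.30 (adjusted p = 0.00024).

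Of 8 measured inhibitors and clearance receptors, 3 rose and 0 fell, with a median of 0.23. The metalloprotease inhibitor Timp1 rose by 4.30 ± 0.50 (adjusted p = 6.9e-05, limma), the endocytic receptor Lrp2 by 2.00 ± 0.49 (adjusted p = 0.0088) and the cell surface proteoglycan Sdc4 by 1.09 ± 0.29 (adjusted p = 0.013). Timp3, known as the strongest inhibitor of ADAMTS aggrecanases, was measured at -0.04 and not called (adjusted p = 0.92). Of 3 measured enzymes of ADAMTS maturation 1 rose: Furin, the convertase that removes the propeptide of ADAMTS enzymes, at 0.53 ± 0.13 (adjusted p = 0.01). With KO TAC replicate 4 left out, 4 inhibitors and clearance receptors rose and 1 fell, where 9818 of all 25786 features were called. These lists are described by count and median only, beside the 27% of all features called, the 13.3% called higher and the median of 0.04 over all features.

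**Figure D4:**
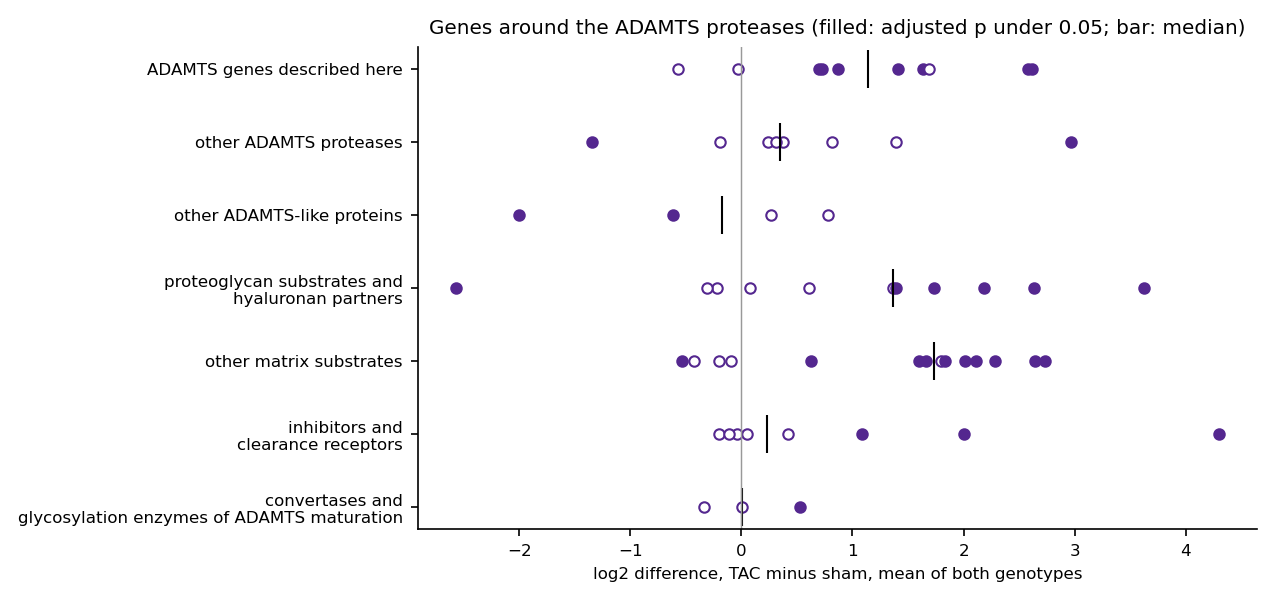
Averaged log2 difference between TAC and sham (horizontal axis) of the 10 ADAMTS genes and of the 6 lists of related genes. Each point is a gene, filled where the adjusted p is under 0.05, and the bar is the list's median. The medians of the other matrix substrates (1.73), the proteoglycans and hyaluronan partners (1.36) and the 10 genes (1.14) lie furthest to the right.

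Markers of several cell types moved with TAC in the same libraries, counted here in the averaged comparison. There 27% of all features were called and 13.3% were called higher. In bulk tissue, fewer cells of a type and less RNA per cell cannot be told apart. Of 8 mesothelial and epicardial markers 7 rose and 0 fell, with list means per array between -3.85 and -1.52 on sham arrays and between -0.42 and 0.40 on TAC arrays. Of 7 measured neutrophil markers 6 rose, from list means between -6.06 and -1.92 to between -2.44 and 0.69, and 2 of the 7 were not well above background on any Cre sham array. Of 11 macrophage and monocyte markers 4 rose, and of 12 fibroblast markers 4 rose and 1 fell. The medians of these 2 lists differed by genotype as filed, as did that of the adipocyte list (-1.73 filed as Cre, -0.06 filed as KO). These differences between list medians were not tested. Macrophage markers had 4 rises and a median of 1.25 filed as Cre, and 1 rise and 0.11 filed as KO. Fibroblast markers had a median of 0.62 filed as Cre (3 rose, 1 fell) and -0.36 filed as KO (2 rose, 3 fell). Of 10 cardiomyocyte markers 0 rose and 1 fell, with list means between 6.40 and 7.65 on all arrays, and 4 of 12 endothelial and 4 of 9 lymphocyte markers fell. Of 12 smooth muscle and pericyte markers 4 rose and 4 fell, and of 5 adipocyte and 4 red blood cell markers 1 and 3 fell. On the arrays without KO TAC replicate 4, 3 adipocyte, 2 cardiomyocyte, 5 smooth muscle and 5 lymphocyte markers fell, and 7 neutrophil, 5 macrophage and 5 fibroblast markers rose. That fit called 9818 of all 25786 features, 4655 of them higher. The part of these cell types in the ADAMTS levels was not tested.

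Over the 15 arrays the genes of most similar pattern to Adamts8, among 14662 genes, were Ccn2, a matricellular growth factor (Pearson r = 0.972), Abra, which encodes an actin-binding protein of striated muscle (r = 0.97), Nppb, which encodes brain natriuretic peptide (r = 0.967), and Calhm5 (r = 0.962). Without KO TAC replicate 4 these values were 0.972, 0.973, 0.969 and 0.966. Among the ADAMTS genes, Adamts8 ran closest to Adamts2 (r = 0.92) and Adamts1 (r = 0.86). The genes of most similar pattern to Adamts10 were Nyap1 (r = 0.909), Kdm5d (r = 0.89), Adam33, another metalloprotease (r = 0.879), and Hoxd4 (r = 0.878). For these genes the values without KO TAC replicate 4 were 0.942, 0.871, 0.869 and 0.847. These coefficients describe arrays that share the operation, the slides and the title numbers, and no test was made of them.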

How the data were processed

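RNA of 15 heart apex samples was measured on 1-colour Agilent arrays with Cy3 label. The scanner data hold spot intensity as Feature Extraction 10.7.3.1 wrote it, per the file headers, and background is already subtracted in its processed signal. The deposited value table holds log2 values, and the submitters' processing notes name limma. The deposited column medians lay between 7.22 and 7.23, and the background treatment behind them is unknown here. Operation and genotype came from title and source name, and the description field named the other operation for 7 of 15 samples.

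Values were log2 of the processed signal, with spots of 1 probe averaged, control spots left out, outlier-flagged spots set missing, and each array's 75th percentile subtracted. Probes well above background on 3 or more arrays were kept (32510 of 41174), each gene took its brightest probe (25786 features), and accessions were named through a RefSeq gene table (GRCm38.p6; the array headers name another mouse build, so no coordinates were carried over). Named were 24844 probes with 17178 symbols. All 15 arrays in 4 groups entered 1 linear model in limma 3.58.1 under R 4.3.3, with empirical Bayes and Benjamini-Hochberg adjustment, calling at 0.05. SE is the moderated standard error. Probe values came from a fit over all 32510 probes. The fit was tested on simulated data. The number of arrays limits the precision, and p-values measure the spread between these samples.

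The genes, lists and alternatives were chosen with earlier results of these data known. Named are all 10 genes, of each of 6 lists up to 4 called genes by size in the averaged comparison, and 4 genes most like Adamts8 and Adamts10; Timp3 was named outside this rule. Replicate numbers did not pair the samples, since same-numbered correlations ran from -0.35 to 0.43. Slides, known from array barcodes, were tried as a block and within slides. Figures used Python 3.11.15, pandas 2.3.3 and matplotlib 3.10.9.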

Additional observations from a re-analysis of the deposited data

How the results depend on the processing

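Of 2090 values of the 10 genes under 36 alternatives, 1932 kept their direction and side of the threshold or were uncalled in both fits, 67 were no longer past the threshold, 81 were newly past it and 10 reversed. Of the uncalled ones, 87 changed sign. The counts of genes called were 7 averaged, 4 filed as Cre, 4 filed as KO, 0 after sham, 1 after TAC and 0 for the difference of responses (limma). Leaving out 1 array gave 2 to 6 called filed as Cre, 3 to 7 filed as KO and 0 to 3 between genotypes after TAC. Of all 25786 features these fits called 413 to 3486, 4490 to 8109 and 68 to 2277, in the same order.

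Median scaling gave 4 averaged, 0 filed as Cre, 2 filed as KO and 0 after TAC, where 3190, 430, 2474 and 67 of all features were called. It moved the median of all features in the averaged comparison from 0.04 to -0.16, and filed as KO from 0.11 to -0.26. Quantile normalization moved the latter to -0.15. Between genotypes after TAC, the count was 3 with normexp and quantile normalization, 2 with a minimum of 8 arrays, 2 with the mean over probes, 2 with trended and robust variance, 2 with slide as a block and 3 with slide as a random block. Of all features, in the same order, 1405, 882 (of 23429), 792, 1065, 1369 and 1556 were called, against 785 in the main fit. Array weights gave 2 after sham, 2 after TAC and 1 for the difference of responses. In the same order they called 547, 3376 and 340 of all 25786 features, against 4, 785 and 3 without weights. Only the compared groups in the fit gave 2 filed as KO and 0 after TAC, where 3133 and 0 of all features were called.

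With the operation of the description field, 0 were called averaged, filed as Cre, filed as KO and after TAC, and reversed were Adamts4 averaged (-0.16) and filed as KO (-0.52) and Adamts2 (-0.05) and Adamts8 (-0.24) filed as Cre. Of all 25786 features, that fit called 0 averaged, 0 filed as Cre, 0 filed as KO and 2 after TAC. With the deposited log2 values and the genotypes filed with the scanner data, 7 were called filed as KO and 3 after TAC. There 8291 and 2322 of all 25786 features were called. Under the genotypes of the value table, 7 were called filed as Cre, 3 after TAC and 1 for the difference of responses, where 8644, 3130 and 175 of all features were called. Reversed were Adamtsl2 filed as Cre (-0.19) and as KO (1.41), Adamts1 (-0.64), Adamts4 (-1.38) and Adamts5 (0.80) after TAC, and the difference of responses of Adamts4 (-1.59).

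The replicate block, on numbers that do not pair the samples, gave 0 after TAC, where 302 of all features were called. With slide as a block and KO TAC replicate 4 left out, 7 were called filed as KO, 4 after TAC and 1 for the difference of responses. Of all 25786 features that fit called 10695, 4240 and 263. Leaving out the sham arrays of the higher title numbers, chosen after seeing the data, gave 4 averaged, 2 filed as KO and 0 after TAC. Of all features 2810, 1573 and 136 were called there. Leaving out KO TAC replicate 4 too gave 2 after TAC, where 1772 of all features were called. Fewer samples bear on these; the cause of the other changes was not tested. Dim signal limits Adamts12, whose other probe was well above background on 11 of 15 arrays.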

Other observations

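The column of the deposited value table named for KO TAC replicate 4 matched no scanner array used here, and the scanner array of that name matched no column (rank correlation between the pair 0.799909). On the authors' log2 scale, that column read 13.66 for Adamts1, 14.52 for Adamts2, 7.79 for Adamts4, 12.34 for Adamts5, 8.93 for Adamts8 and 5.97 for Adamts12. The 3 other columns named KO TAC, which match the scanner arrays filed as Cre TAC, read 13.21 to 13.56 for Adamts1, 7.25 to 7.79 for Adamts4, 12.48 to 13.15 for Adamts5 and 5.88 to 6.69 for Adamts12. The columns named Cre TAC read 13.60 to 14.43, 8.57 to 9.71, 11.79 to 12.11 and 5.91 to 6.68 for the same genes. No TAC column of the table stood apart for Adamts12, unlike the scanner array filed as KO TAC replicate 4.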
